A study of Mus musculus with 6 samples.

Results

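The 9 genes described here encode the enzymes that lead from carbamoyl phosphate to the pyrimidine nucleotides and on to the deoxynucleotides, the building blocks of DNA. They are *Cad*, *Dhodh*, *Umps*, *Ctps*, *Rrm1*, *Rrm2*, *Tyms*, *Dut* and *Tk1*. They were chosen by name, for their place in the pathway and with earlier results of these data known, and are 9 of the 56748 genes in the deposited table. All 9 had enough counts to be tested, as did 14936 genes in all. The transcripts came from CD4 T cells of wild-type C57BL/6 mice aged 6 to 10 weeks. Naïve cells were isolated from spleen and lymph nodes by negative selection and cultured for 3 days with plate-bound anti-CD3, soluble anti-CD28, IL-2, TGF-β, anti-IFNγ and anti-IL-4, which are Treg polarizing conditions, and they were not sorted afterwards. All cultures received an antisense oligonucleotide (ASO), a short synthetic strand that binds a matching RNA, at 10 μM from the start of culture. The ASOs were scrambled in 3 libraries and directed at *Pgam* in 3. The question put to these libraries was how knocking down the glycolytic enzyme phosphoglycerate mutase changes transcription in cells that are becoming Tregs.

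Dividing T cells need deoxynucleotides in quantity, and activation of a naïve T cell is known to switch on both the synthesis of UMP from glutamine, bicarbonate and aspartate and the salvage of nucleosides from outside the cell. UMP is turned into UTP and CTP for RNA, while ribonucleotide reductase removes the 2′ hydroxyl from nucleoside diphosphates to give deoxynucleotides. Thymidylate is made from dUMP with a carbon taken from a folate, or salvaged from thymidine, and several of these enzymes are known to be produced mainly in S phase, when DNA is copied.

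RNA with polyA tails was sequenced, and the counts were estimated with Kallisto by the authors. Totals were 17588755, 18032805 and 16231127 counts for scrambled replicates 1, 2 and 3, and 16589933, 15860476 and 16803881 for the libraries labelled *Pgam* ASO in the same order. Levels are given as CPM, the counts of a gene scaled to a common library total with edgeR's TMM factors. A fold change above 1 means a higher level in the libraries labelled *Pgam* ASO than in the scrambled libraries. Calls rest on edgeR's two-sided quasi-likelihood test with Benjamini-Hochberg adjustment over all 14936 tested genes, at an adjusted p under 0.05. The study calls the replicates of these libraries biological, and p-values measure the spread between them. No batch is given.

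The targeted genes came first. *Pgam1* stood at 600, 478 and 707 CPM in scrambled replicates 1, 2 and 3 and at 658, 661 and 707 CPM in replicates 1, 2 and 3 labelled *Pgam* ASO, so its level was not lower in the latter, while *Pgam2* stood at 5.23, 6.75 and 2.85 CPM against 2.98, 2.69 and 2.6 CPM. *Pgam1* shares 37.1% of its stretches of 31 bases with the pseudogene *Pgam1-ps2*, so its counts depend in part on how Kallisto divides reads. Neither was called (edgeR adjusted p = 0.331 and 0.0854). *Pgam2* was called lower by edgeR with no filter on low counts (adjusted p = 0.0292) and without scrambled replicate 3 (adjusted p = 0.0144), and over the other alternatives its adjusted p reached 0.286. Since the *Pgam1* transcript was not lower, the groups are named by their labels throughout. RNA counts do not measure the protein.

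Marker genes were read to check the cell type. The 8 CD4 T cell markers summed to 5150, 4930 and 5320 CPM in scrambled replicates 1, 2 and 3 and to 5770, 5840 and 5560 CPM in the libraries labelled *Pgam* ASO. Of the 8, 5 were lower and 2, *Il2ra* and *Thy1*, higher in the latter with groups that did not overlap, and the median log2 fold change was -0.24. Groups without overlap were found in 19.6% of all tested genes in the higher direction and in 19.8% in the lower. *Cd3d*, *Cd3e*, *Cd3g* and *Cd4* had log2 fold changes of -0.27, -0.37, -0.34 and -0.21, and *Thy1* and *Lck* of 0.21 and 0.07, all 6 named after their values were seen. None of these 6 was called by edgeR or limma-voom, DESeq2 called 1, *Cd3e*, lower, and all but *Lck* had an unadjusted p under 0.05 in edgeR. The higher sum came mainly from *Il2ra*, the receptor chain that activated T cells and Tregs carry and the most abundant of the 8. It rose from 1950, 1630 and 2220 CPM to 2910, 2900 and 2490 CPM (edgeR adjusted p = 0.0185), with an adjusted p of 0.0725, 0.0639 and 0.0967 without scrambled replicate 1, *Pgam* ASO replicate 1 and *Pgam* ASO replicate 2. *Foxp3*, the defining transcription factor of Tregs, was the other marker of the 8 that was called, and it is named here after its values were seen. It fell from 282, 371 and 222 CPM to 89.7, 109 and 131 CPM (edgeR adjusted p = 0.00567) and was called lower without each library in turn. Markers of other cells were low. The 2 CD8 markers summed to 10.8 to 15.7 CPM in all 6 libraries and went in opposite directions. *Cd8b1*, the more abundant, stood at 8.78, 10.4 and 8.61 CPM against 7.58, 7.25 and 9.41 CPM. Its groups overlapped, and it was not called (log2 fold change -0.2, edgeR adjusted p = 0.454). *Cd8a*, named after its values were seen, was called higher at 2.48, 3.08 and 2.23 CPM against 7.02, 3.66 and 6.27 CPM (edgeR adjusted p = 0.0286, and 0.0989 without scrambled replicate 1 and 0.1 without *Pgam* ASO replicate 1). The 5 B cell markers summed to 6.63 to 11.6 CPM, led by *Cd79a*, and the 6 myeloid markers to 5.97 to 9.02 CPM, led by *Cd68*. The 3 NK cell markers summed to 2.42, 2.21 and 2.35 CPM against 5.9, 3.91 and 2.49 CPM, nearly all of it from *Klrk1*, and *Klrb1c* was at 0, which allows up to 0.189 CPM in a library by counting error alone. The 4 markers of mast cells and basophils summed to 1.07, 1.89 and 1.36 CPM against 4.1, 3.98 and 2.96 CPM, led by *Cpa3*, and the 5 erythroid markers to 0.929 to 1.78 CPM, led by *Hba-a1*, with *Hba-a2* at 0. None of the B cell, myeloid, NK, erythroid, or mast cell and basophil markers was called by edgeR, while 5 had an unadjusted p under 0.05. DESeq2 called 3 of them, with *Cd79a* lower and *Cpa3* higher among them, and limma-voom 1, *Cpa3*, higher. The part of other cells in the results below was not tested.

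Transcripts of the pyrimidine and deoxynucleotide enzymes were more abundant in the libraries labelled *Pgam* ASO. Of the 9, *Cad*, *Rrm1*, *Rrm2*, *Tyms*, *Dut* and *Tk1* rose past the threshold, from 1.28-fold for *Rrm1* to 1.59-fold for *Cad*, while *Dhodh*, *Ctps* and *Umps* did not pass. That is 6 called higher of 9, where 8.03% of all tested genes were called higher and 9.15% lower. With each library left out in turn the count ran from 0 to 8, and with replicate number as a block it was 4. Among the 8199 tested genes with a mean log2 CPM of at least 4, as all 9 had, 12.0% were called higher and 10.4% lower. None of the 9 was called lower by edgeR, DESeq2 or limma-voom, and none had a lower level at an unadjusted p under 0.05. In 8 of the 9, every library labelled *Pgam* ASO lay above every scrambled library, against 19.6% of all tested genes in that direction and 19.8% in the other. Among those with a mean log2 CPM of at least 4, the shares were 27.6% and 20.0%. The median log2 fold change of the 9 was 0.46, beside medians of -0.006 over all tested genes and 0.048 over those with a mean log2 CPM of at least 4. In cultures that were not sorted, a change in the share of cells that make a transcript and a change in its amount per cell cannot be told apart.

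**Figure D1:**
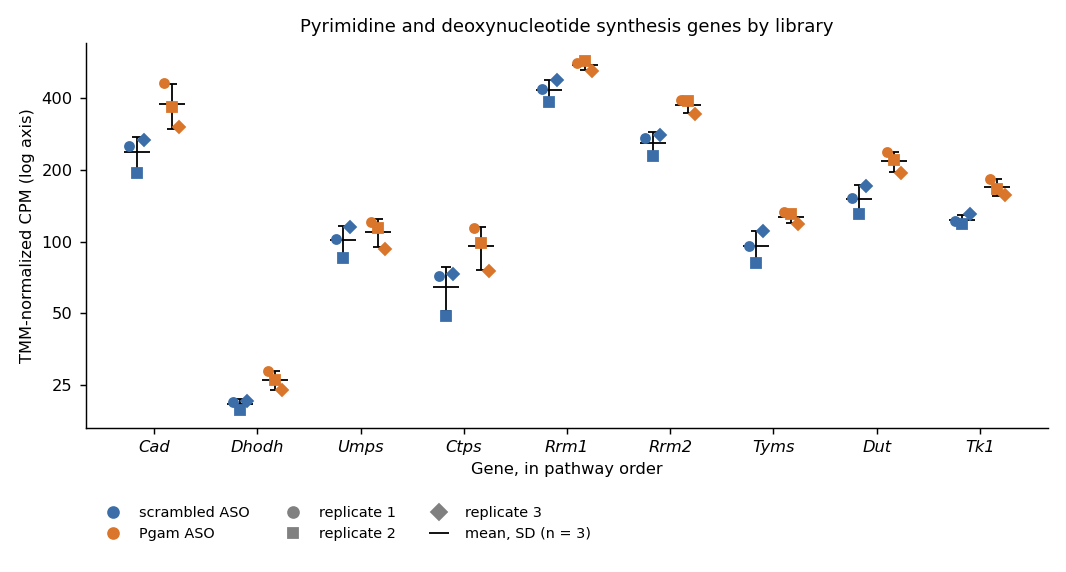
TMM-normalized CPM of the 9 enzyme genes (log axis) in each library, with scrambled ASO in blue and the libraries labelled *Pgam* ASO in orange, symbols for the replicate number, and black lines for the mean and SD of 3 libraries. In every gene but *Umps* the orange points lie above the blue ones, and the blue square, scrambled replicate 2, is the lowest point of each gene.

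The synthesis of UMP starts with *Cad* (ENSMUSG00000013629), which encodes the multifunctional protein that makes carbamoyl phosphate, joins it to aspartate and closes the ring to dihydroorotate. On GRCm38, GENCODE M21 places the gene on chromosome 5, bases 31054780 to 31078479, and positions below have the same source. Its level was 252, 194 and 266 CPM in scrambled replicates 1, 2 and 3 and 465, 369 and 302 CPM in the libraries labelled *Pgam* ASO. The groups did not overlap, but replicate 3 labelled *Pgam* ASO was only 1.13 times the highest scrambled library. Group means of 237 ± 38.2 and 378 ± 82 CPM (SD, n = 3) gave 0.67 as log2 fold change (standard error 0.17, edgeR adjusted p = 0.0286). *Cad* had the largest fold change of the 9 genes and the widest spread among the libraries labelled *Pgam* ASO, with an SD of 21.7% of the mean. Its adjusted p was 0.0753, 0.089, 0.073 and 0.0963 without scrambled replicate 1, scrambled replicate 2, *Pgam* ASO replicate 1 and *Pgam* ASO replicate 2, respectively.

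*Dhodh* (ENSMUSG00000031730; chromosome 8, 109591343 to 109608673) encodes the enzyme of the inner mitochondrial membrane that oxidizes dihydroorotate to orotate and passes the electrons to ubiquinone. It was the least counted of the 9, with 346 to 460 counts in a library. Its level was 21.2, 19.6 and 21.4 CPM in scrambled replicates 1, 2 and 3 and 28.6, 26.3 and 23.7 CPM in the libraries labelled *Pgam* ASO. These values did not overlap, and the scrambled libraries lay close together, yet the gene missed the threshold. On the log2 scale it was 0.34 higher (standard error 0.11, edgeR adjusted p = 0.0647). The adjusted p was 0.0399 without *Pgam* ASO replicate 3, up to 0.204 without another library, and 0.0627 to 0.127 under the alternatives that kept all libraries.

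*Umps* (ENSMUSG00000022814; chromosome 16, 33954782 to 33967038) encodes the protein that turns orotate into UMP and so ends the same route. Its level was 103, 85.3 and 115 CPM in scrambled replicates 1, 2 and 3 and 121, 114 and 92.9 CPM in the libraries labelled *Pgam* ASO. The groups overlapped, since *Pgam* ASO replicate 3 lay below scrambled replicates 1 and 3. The log2 fold change was small, at 0.12 (edgeR adjusted p = 0.548, standard error 0.13). It ran from 0.009 to 0.229 with each library left out in turn, and it was not called under any alternative tried. Set against *Umps* in the same library, *Cad* stood at 2.45, 2.27 and 2.32 times its CPM in scrambled replicates 1, 2 and 3 and at 3.83, 3.22 and 3.25 times in the libraries labelled *Pgam* ASO. This ratio was chosen after the values were seen and was not tested.

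*Ctps* (ENSMUSG00000028633; chromosome 4, 120539868 to 120570276) encodes a CTP synthase, which aminates UTP to CTP with nitrogen from glutamine. Its level was 71.4, 48.8 and 73 CPM in scrambled replicates 1, 2 and 3 and 114, 98.5 and 75 CPM in the libraries labelled *Pgam* ASO. Only 1.03-fold separated *Pgam* ASO replicate 3 from the highest scrambled library, and the SD was 21% of the mean in the scrambled group and 20.3% in the other. Its log2 fold change of 0.57 (standard error 0.19) was the second largest of the 9 and did not pass (edgeR adjusted p = 0.0642). It was called without *Pgam* ASO replicate 3 (edgeR adjusted p = 0.0176), by DESeq2 (adjusted p = 0.0123) and by edgeR with no filter on low counts (adjusted p = 3.09e-06). Other alternatives with all libraries gave an adjusted p of up to 0.0744, and leaving out another library one of up to 0.176.

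Ribonucleotide reductase is built of large subunits, encoded by *Rrm1*, and small subunits that hold the tyrosyl radical, encoded in S phase by *Rrm2*. Both rose. *Rrm1* (ENSMUSG00000030978; chromosome 7, 102441695 to 102469771) stood at 436, 384 and 476 CPM in scrambled replicates 1, 2 and 3 and at 562, 571 and 521 CPM in the libraries labelled *Pgam* ASO. The 3 latter libraries lay close together, with an SD of 4.89% of the mean, and all above the highest scrambled library. *Rrm1* thus rose by 0.35 on the log2 scale (standard error 0.09, edgeR adjusted p = 0.0331). Its adjusted p was 0.109, 0.0676, 0.1 and 0.14 without scrambled replicate 1, scrambled replicate 2, *Pgam* ASO replicate 1 and *Pgam* ASO replicate 2. *Rrm2* (ENSMUSG00000020649; chromosome 12, 24708241 to 24714146) stood at 271, 229 and 280 CPM in scrambled replicates 1, 2 and 3 and at 394, 390 and 342 CPM in the libraries labelled *Pgam* ASO. Its lowest library labelled *Pgam* ASO was 1.22 times the highest scrambled one, the widest gap among the 9 genes. It rose by 0.53 on the log2 scale (standard error 0.1), and its adjusted p of 0.0103 from edgeR was the lowest of the 9. Of the fits with a library left out, the call was lost only in that without *Pgam* ASO replicate 2 (edgeR adjusted p = 0.0704). Of the 31-base stretches in *Rrm2* transcripts, 12.8% also occur in transcripts of other genes, at most 4.45% in those of any single gene, and reads from such stretches have to be divided by Kallisto.

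Thymidylate synthesis needs *Dut*, whose product splits dUTP to dUMP and so keeps uracil out of DNA, and *Tyms*, whose product methylates dUMP to dTMP. *Dut* (ENSMUSG00000027203; chromosome 2, 125247190 to 125258608) stood at 152, 130 and 172 CPM in scrambled replicates 1, 2 and 3 and at 237, 221 and 195 CPM in the libraries labelled *Pgam* ASO. All 3 of the latter lay above the former, the lowest at 1.13 times the highest scrambled library. *Dut* rose by 0.52 on the log2 scale (standard error 0.11, edgeR adjusted p = 0.0175), and its adjusted p was 0.0709, 0.0624 and 0.0893 without scrambled replicate 1, *Pgam* ASO replicate 1 and *Pgam* ASO replicate 2. *Tyms* (ENSMUSG00000025747; chromosome 5, 30058202 to 30073617) stood at 95.9, 80.9 and 111 CPM in scrambled replicates 1, 2 and 3 and at 133, 131 and 118 CPM in the libraries labelled *Pgam* ASO. The gap between the groups was narrow, with the lowest library labelled *Pgam* ASO at 1.06 times the highest scrambled one. *Tyms* rose by 0.41 on the log2 scale (standard error 0.11, edgeR adjusted p = 0.038). Its adjusted p was 0.117, 0.0828, 0.115 and 0.143 without scrambled replicate 1, scrambled replicate 2, *Pgam* ASO replicate 1 and *Pgam* ASO replicate 2. For *Tyms*, 11.4% of such stretches are shared, 5.23% with the pseudogene *Tyms-ps*.

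*Tk1* (ENSMUSG00000025574; chromosome 11, 117815526 to 117826092) encodes the cytosolic thymidine kinase, which salvages thymidine into dTMP and is known as a marker of S phase. Its level was 122, 118 and 130 CPM in scrambled replicates 1, 2 and 3 and 184, 166 and 157 CPM in the libraries labelled *Pgam* ASO. The scrambled libraries differed little, with an SD of 4.81% of the mean, and the groups stood 1.21-fold apart at their nearest libraries. *Tk1* rose by 0.46 on the log2 scale (standard error 0.09, edgeR adjusted p = 0.0111), with an adjusted p of 0.0613 without scrambled replicate 1 and of 0.0636 without *Pgam* ASO replicate 2.

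The 9 genes moved together from library to library. Scrambled replicate 2 had the lowest level of each, 9 of 9, and scrambled replicate 3 the highest level within its group, also 9 of 9. Among the libraries labelled *Pgam* ASO, replicate 3 was the lowest in 9 of 9, and replicate 1 had the highest level of all 6 libraries in 8, with replicate 2 highest for *Rrm1*. How many of all tested genes share this order was not counted, so it is not shown to be particular to the 9. Genes outside the pathway, such as *Psmb3* below, followed the mean of the 9 more closely than any of the 9 did. Summed over the 9 genes, levels were 1520, 1290 and 1640 CPM in scrambled replicates 1, 2 and 3 and 2240, 2090 and 1830 CPM in the libraries labelled *Pgam* ASO. The spread within a group thus runs along the same direction as the difference between the groups. *Foxp3* was ordered the other way within the scrambled group, highest in replicate 2 and lowest in replicate 3, and was highest in replicate 3 among those labelled *Pgam* ASO. Transcripts encoded in the mitochondrial genome took 1.95%, 2.12% and 1.93% of the counts of scrambled replicates 1, 2 and 3 and 1.24%, 1.44% and 1.32% in the libraries labelled *Pgam* ASO. With these and the ribosomal protein genes left out of the scaling and of the test, which then covered 14825 genes, 6 of the 9 were called higher. Leaving out scrambled replicate 1, 2 or 3 left 1, 3 and 6 of the 9 called higher by edgeR. Leaving out replicate 1, 2 or 3 labelled *Pgam* ASO left 2, 0 and 8. Without *Pgam* ASO replicate 2, 8 of the 9 had an unadjusted p under 0.05. Of all tested genes, 1199 were called higher with all libraries and 223, 496 and 1711 without scrambled replicate 1, 2 or 3, and 327, 160 and 1576 without replicate 1, 2 or 3 labelled *Pgam* ASO. DESeq2 and limma-voom were not run with libraries left out.

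**Figure D2:**
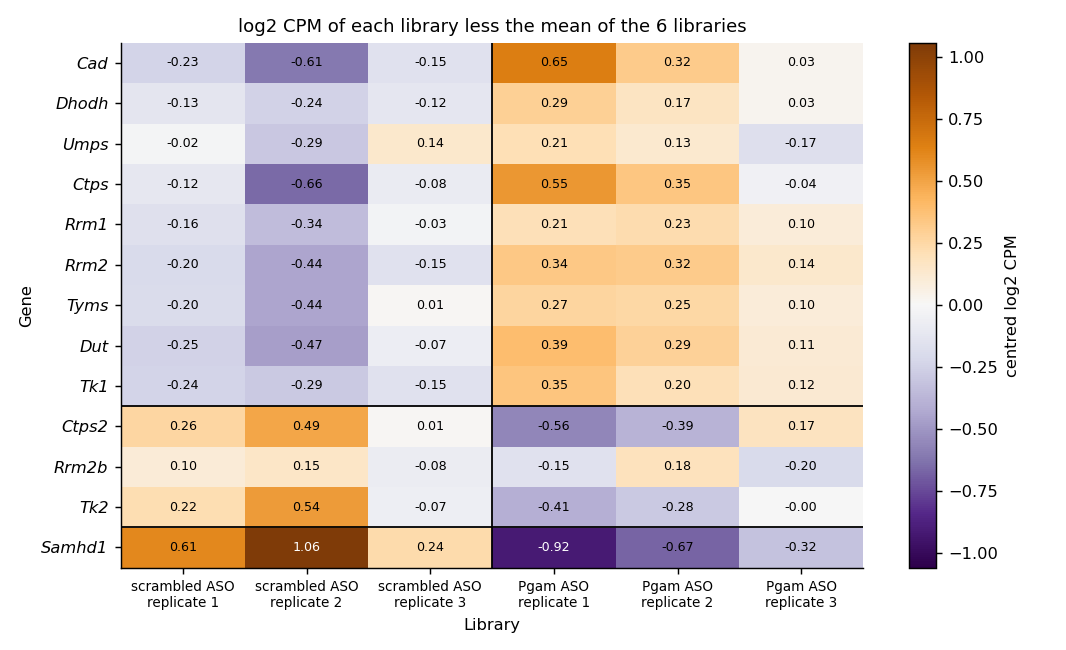
log2 CPM of each library less the mean over the 6 libraries, for the 9 enzyme genes in pathway order (top), 3 isozyme genes (middle) and *Samhd1* (bottom), with orange above and purple below the mean of the gene. Scrambled replicate 2 is lowest for each of the 9 enzymes and highest for *Samhd1*, at 1.06.

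For the 9 genes, levels between genes were compared per length of the principal transcript. That length can be far above the median of a gene's coding transcripts, at 3163 against 559 bases for *Tyms* and 2193 against 841 for *Rrm2*. The order below depends on this choice, and other lengths were not tried. In the scrambled libraries the order in mean CPM per kb was *Rrm2* (119), *Rrm1* (108), *Tk1* (85.6), *Dut* (77.7), *Cad* (33.3), *Tyms* (30.3), *Umps* (29), *Ctps* (23.8) and *Dhodh* (10.2). The 2 reductase subunits overlapped between libraries, as did *Tk1* with *Dut* and each pair of neighbours among *Cad*, *Tyms*, *Umps* and *Ctps*. In the libraries labelled *Pgam* ASO the mean CPM per kb was 171 for *Rrm2*, 138 for *Rrm1*, 117 for *Tk1*, 111 for *Dut*, 53 for *Cad*, 40.2 for *Tyms*, 35.4 for *Ctps*, 31.4 for *Umps* and 12.8 for *Dhodh*. *Umps* and *Ctps*, whose libraries overlapped in both groups, were the only neighbours to change places. The reductase, thymidine kinase and dUTPase transcripts thus stood above those of UMP synthesis per length in both groups.

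Since 5 of the 6 genes that rose act on deoxynucleotides, promoter windows were read for the motifs of factors known for cell cycle and growth genes. RefSeq windows of 300 bases on GRCm38.p6, most of it before and the rest after a start site, were found for 8 of the 9 genes, in 9 windows, and *Dhodh* was not matched. On both strands, the windows were searched for the E2F words TTTCGCGC, TTTGGCGC, TTTCCCGC and TTTGCCGC, the E-box CACGTG that MYC and MAX bind, and CCAAT, the motif of NF-Y. No match overlapped another. CCAAT was found in the windows of *Rrm1*, at 91 and 45 bases before the start site, and of *Rrm2*, at 50 bases before it. It is held by 2 of the 9 windows and by 37.4% of all 32851 windows. Among the isozymes described below, *Ctps2* also has CCAAT in a window, 68 bases before the start site. CACGTG was found in the window of *Tyms*, 61 bases before the start site, and is held by 1 of the 9 windows and by 7.15% of all windows. The E2F words were in 0 of the 9 windows and in 2.26% of all windows, which says only that these letters are not there. The 3 windows of the enzymes with a match are printed 5′ to 3′ on the strand of the gene, with the matched letters in capitals. They lie at chr7:102441445-102441744 on the plus strand for *Rrm1*, chr12:24708004-24708303 on the plus strand for *Rrm2* and chr5:30073576-30073875 on the minus strand for *Tyms*.
Rrm1: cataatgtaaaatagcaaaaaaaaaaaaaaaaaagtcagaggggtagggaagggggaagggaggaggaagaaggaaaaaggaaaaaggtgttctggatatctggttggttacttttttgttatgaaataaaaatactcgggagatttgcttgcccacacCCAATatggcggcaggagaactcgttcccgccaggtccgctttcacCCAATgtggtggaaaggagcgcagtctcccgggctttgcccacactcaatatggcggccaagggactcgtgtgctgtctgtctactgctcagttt
Rrm2: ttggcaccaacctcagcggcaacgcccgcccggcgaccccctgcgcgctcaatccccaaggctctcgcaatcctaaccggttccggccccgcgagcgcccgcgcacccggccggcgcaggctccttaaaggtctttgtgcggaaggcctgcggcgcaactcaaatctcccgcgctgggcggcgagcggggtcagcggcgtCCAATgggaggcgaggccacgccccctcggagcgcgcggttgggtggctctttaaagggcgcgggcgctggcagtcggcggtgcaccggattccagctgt
Tyms: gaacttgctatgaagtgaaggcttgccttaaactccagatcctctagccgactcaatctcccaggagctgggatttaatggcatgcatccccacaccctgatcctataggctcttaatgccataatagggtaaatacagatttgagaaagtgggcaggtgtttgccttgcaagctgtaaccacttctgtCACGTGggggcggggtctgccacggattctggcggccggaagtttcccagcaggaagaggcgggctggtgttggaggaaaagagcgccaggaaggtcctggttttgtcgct

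The *Rrm1* window is poor in CG pairs, with 9, and the *Rrm2* window rich in them, with 40. The *Tyms* window has 9 CG pairs. *Rrm1*, *Rrm2* and *Tyms* rose 1.28-fold, 1.44-fold and 1.33-fold. A match is a description of the letters and no evidence that a factor binds there.

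Isozymes that do the same reaction in other settings were not called by edgeR with all libraries and low counts filtered. *Ctps2* encodes the second CTP synthase, *Rrm2b* the small reductase subunit known to be induced by p53 outside S phase, and *Tk2* the mitochondrial thymidine kinase. *Ctps2* (ENSMUSG00000031360) stood at 58.7, 69 and 49.4 CPM in scrambled replicates 1, 2 and 3 and at 33, 37.2 and 55.2 CPM in the libraries labelled *Pgam* ASO, a log2 difference of -0.5 (standard error 0.19, edgeR adjusted p = 0.105). *Tk2* (ENSMUSG00000035824) stood at 31.7, 39.6 and 25.9 CPM against 20.4, 22.2 and 27.1 CPM, a log2 difference of -0.48 (standard error 0.17, edgeR adjusted p = 0.0678). In both genes *Pgam* ASO replicate 3 reached into the scrambled range. DESeq2 called them lower (adjusted p = 0.0473 for *Ctps2* and 0.0415 for *Tk2*), as did edgeR with no filter on low counts (adjusted p = 0.000439 and 0.00488). So did edgeR without *Pgam* ASO replicate 3 (adjusted p = 0.00942 and 0.0346), and for *Tk2* also without scrambled replicate 3 (adjusted p = 0.0196). Over all alternatives the adjusted p reached 0.329 for *Ctps2* and 0.212 for *Tk2*, each with 1 library left out. *Rrm2b* (ENSMUSG00000022292) stood at 17.7, 18.3 and 15.6 CPM against 14.8, 18.7 and 14.2 CPM (edgeR adjusted p = 0.611). Per length of the principal transcript, *Rrm2b* was the lowest of these 12 genes in both groups. It stood at 3.77 ± 0.316 CPM per kb in the scrambled libraries and 3.49 ± 0.541 in the others (SD, n = 3). Its principal transcript has 4561 bases, against a median of 690 for its coding transcripts. By this measure, nearly all small-subunit transcript was *Rrm2*.

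To compare partners within a library, where scaling has no part, the log2 ratio of their CPM was tested for 4 pairs, with 0.5 CPM added to each value. An exact permutation test of 3 libraries against 3 cannot go below p = 0.1, so none of these ratios can pass 0.05. *Tk1* was 3.85, 2.98 and 5.01 times *Tk2* in scrambled replicates 1, 2 and 3 and 9.03, 7.48 and 5.8 times in the libraries labelled *Pgam* ASO. The groups did not overlap, and the mean log2 ratio differed by 0.91 (two-sided exact permutation p = 0.1, 0.133 adjusted over the 4 ratios). *Rrm2* was 15.3, 12.5 and 18 times *Rrm2b* in the scrambled libraries and 26.7, 20.8 and 24.1 times in the others, a difference of 0.65 in the mean log2 ratio (exact permutation p = 0.1, adjusted 0.133). For the 2 reductase subunits the groups were apart as well, by a smaller ratio. *Rrm2* stood at 0.621, 0.596 and 0.588 of the CPM of *Rrm1* in scrambled replicates 1, 2 and 3 and at 0.702, 0.682 and 0.658 in the libraries labelled *Pgam* ASO, a difference of 0.18 in the mean log2 ratio (exact permutation p = 0.1, adjusted 0.133). *Ctps* was 1.21, 0.707 and 1.48 times *Ctps2* in scrambled replicates 1, 2 and 3 and 3.45, 2.65 and 1.36 times in the libraries labelled *Pgam* ASO. Only in scrambled replicate 2 was *Ctps* below *Ctps2*. The groups overlapped, and the mean log2 ratio differed by 1.09 (exact permutation p = 0.2, adjusted 0.2).

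**Figure D3:**
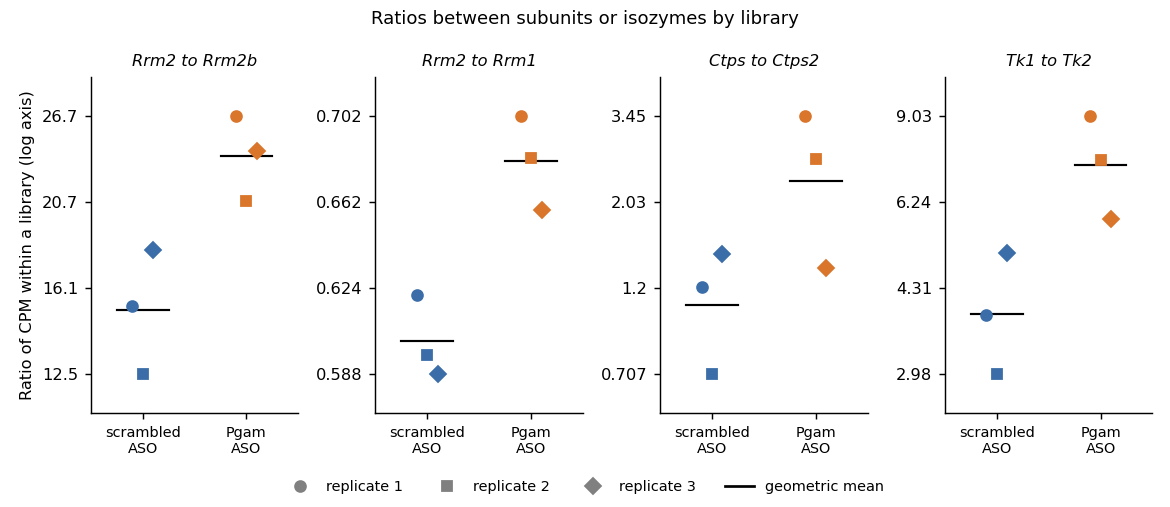
Ratio of the CPM of a pair of genes within each library (log axes, a scale for each pair), with scrambled ASO in blue and the libraries labelled *Pgam* ASO in orange, symbols for the replicate number and black lines for the geometric mean. Only for *Ctps* to *Ctps2* do the groups overlap, through replicate 3 labelled *Pgam* ASO at 1.36.

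Of 38 other genes of pyrimidine and deoxynucleotide metabolism, 33 were tested, of which 5 were called higher and 3 lower, or 15.2% and 9.09%. Their median log2 fold change was 0.072. Over all tested genes the shares were 8.03% and 9.15%. *Shmt1*, the cytosolic enzyme that loads the folate used by the *Tyms* product, was at 63.2, 54.2 and 73 CPM in scrambled replicates 1, 2 and 3 and at 104, 100 and 81.1 CPM in the libraries labelled *Pgam* ASO. It rose by 0.58 on the log2 scale (standard error 0.13, edgeR adjusted p = 0.0173). *Txnrd1*, the reductase that keeps thioredoxin able to reduce ribonucleotide reductase, was at 150, 123 and 167 CPM against 252, 209 and 190 CPM, higher by 0.57 in log2 (edgeR adjusted p = 0.0218). *Dctd*, whose product deaminates dCMP to dUMP, was at 17, 14.8 and 17.3 CPM against 28.2, 27.2 and 18.9 CPM, higher by 0.6 in log2 (edgeR adjusted p = 0.0331). *Nme1*, a nucleoside diphosphate kinase, rose by 0.59 in log2 (edgeR adjusted p = 0.0175). *Prps1*, which makes the phosphoribosyl pyrophosphate that joins orotate, rose by 0.42 (edgeR adjusted p = 0.0239). Transcripts of *Prps1* share 18.5% of their 31-base stretches with *Prps1l3*, and with the counts of both summed, an alternative chosen after the data were seen, the log2 fold change was 0.34 (edgeR adjusted p = 0.0427). All 5 calls were lost without scrambled replicate 1, without *Pgam* ASO replicate 1 and without *Pgam* ASO replicate 2. In that order, the adjusted p from edgeR was 0.0695, 0.0607 and 0.092 for *Shmt1* and 0.0756, 0.0724 and 0.0873 for *Txnrd1*. It was 0.0665, 0.0624 and 0.0873 for *Nme1*, 0.0928, 0.114 and 0.142 for *Dctd* and 0.0999, 0.084 and 0.111 for *Prps1*. Without scrambled replicate 2 it was 0.0841 for *Dctd* and 0.0526 for *Prps1*.

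The 3 genes called lower, 9.09% of the 33 beside 9.15% of all tested genes, were *Samhd1*, *Upp1* and *Glrx*. *Samhd1* (ENSMUSG00000027639; chromosome 2, 157097533 to 157135265) encodes the hydrolase that splits deoxynucleotide triphosphates to deoxynucleosides and is known to hold their level down in cells that do not divide. Its level was 774, 1060 and 599 CPM in scrambled replicates 1, 2 and 3 and 269, 319 and 407 CPM in the libraries labelled *Pgam* ASO. The groups did not overlap, and scrambled replicate 2 was again at the far end, here the highest. The means were 811 ± 232 and 332 ± 69.7 CPM (SD, n = 3). In log2, *Samhd1* fell by 1.29 (standard error 0.23, edgeR adjusted p = 0.0144), with an adjusted p of 0.0683 without *Pgam* ASO replicate 2. Set against *Rrm2* in the same library, *Samhd1* stood at 2.86, 4.62 and 2.14 times its CPM in scrambled replicates 1, 2 and 3 and at 0.683, 0.818 and 1.19 times in the libraries labelled *Pgam* ASO, a ratio chosen after the values were seen and not tested. *Upp1* (ENSMUSG00000020407; chromosome 11, 9118103 to 9136170) encodes uridine phosphorylase, which splits uridine to uracil. It was at 19.1, 17.6 and 24.7 CPM in scrambled replicates 1, 2 and 3 and at 9.13, 8.21 and 7.46 CPM in the libraries labelled *Pgam* ASO. The 3 latter libraries lay close together and far below the others. *Upp1* fell by 1.31 in log2 (standard error 0.16, edgeR adjusted p = 0.00162), and it was called lower without each library in turn, with an adjusted p of 0.0197 at most. *Glrx*, the glutaredoxin that is the other known electron donor of the reductase, was at 33.1, 41.6 and 33.6 CPM against 21.6, 21.7 and 27.1 CPM, lower by 0.62 in log2 (standard error 0.13, edgeR adjusted p = 0.0162), with an adjusted p of 0.058 without *Pgam* ASO replicate 1 and of 0.0925 without *Pgam* ASO replicate 2.

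*Tk1*, called higher above, and *Tk2* are not in the list of salvage genes read here. None of the 7 tested genes of that list was called higher by edgeR, DESeq2 or limma-voom. At an unadjusted p under 0.05, 1, *Uck2*, was higher. Of the 7, 1, *Upp1*, was called lower, 2, *Upp1* and *Uckl1*, were lower at an unadjusted p under 0.05, and 3 were lower with groups that did not overlap. Over all tested genes, 8.03% were called higher, 9.15% lower, and 19.8% were lower with no overlap. *Dck*, the deoxycytidine kinase, stood at 104, 108 and 108 CPM against 98.4, 116 and 117 CPM, and *Uck2*, a uridine-cytidine kinase, at 215, 193 and 228 CPM against 262, 243 and 236 CPM (edgeR adjusted p = 0.748 and 0.109); both, and *Uckl1*, are named after their values were seen. *Cda*, *Dpyd*, *Dpys* and *Nme3* had no count in any library. Stretches of 31 bases found in other genes too make up 89.2% of *Nme3*, 47.9% of *Nme2* and 41.2% of *Tymp*, so these 3 are uncertain. Without scrambled replicate 1, 2 or 3, 0, 3 and 7 of the 33 were called higher by edgeR, and without replicate 1, 2 or 3 labelled *Pgam* ASO, 0, 0 and 7. The 3 counts of 0 stand beside 6, 6 and 7 genes higher at an unadjusted p under 0.05, and DESeq2 and limma-voom, run with all libraries, called 6 and 5. In the same order, 3, 3, 4, 2, 1 and 5 were called lower.

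**Figure D4:**
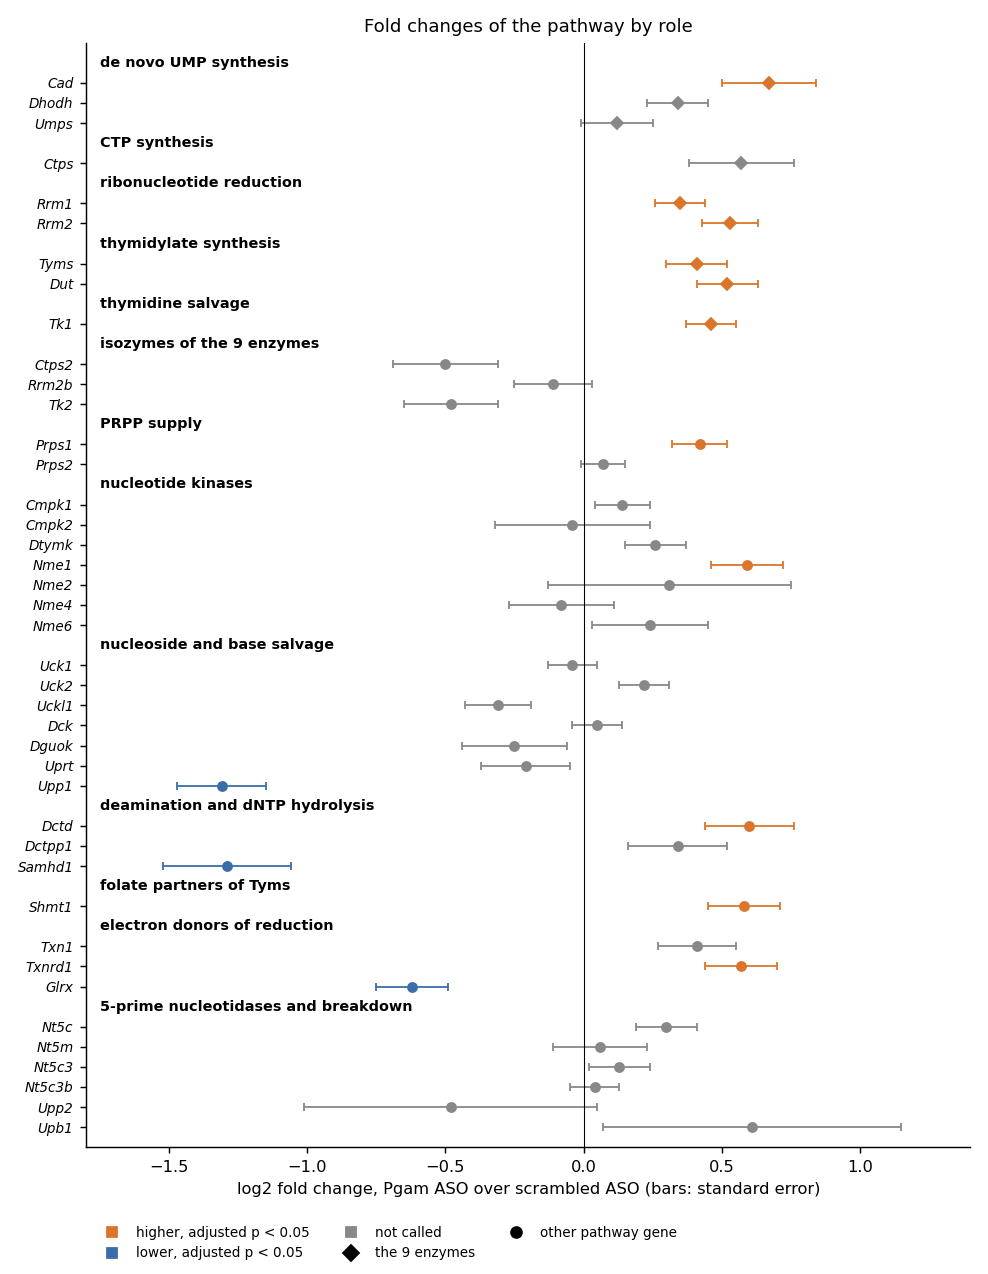
log2 fold changes of the 9 enzymes and of 32 of the 33 other tested pathway genes, libraries labelled *Pgam* ASO over scrambled ASO, by role, with bars for the standard error, diamonds for the enzymes, circles for other genes, and orange for called higher, blue for called lower and grey for not called. All 9 diamonds lie right of 0, and *Upp1* and *Samhd1* lie farthest left, at -1.31 and -1.29.

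Factors known to drive these genes were read from a list of 12 E2F and MYC family genes, of which 11 were tested, 4 called higher and 1 lower, with a median log2 fold change of 0.31. The shares are 36.4% and 9.09%, beside 8.03% and 9.15% of all tested genes. *E2f3*, an activator, stood at 48.4, 38.4 and 49.6 CPM in scrambled replicates 1, 2 and 3 and at 63.4, 60.4 and 54 CPM in the libraries labelled *Pgam* ASO (log2 fold change 0.38, edgeR adjusted p = 0.0484). *E2f4*, a repressor in resting cells, and *E2f7*, an S phase repressor, had log2 fold changes of 0.36 and 0.34 (edgeR adjusted p = 0.0399 and 0.0403). *Mycl* had one of 1.32 (edgeR adjusted p = 0.0273) but reached only 1.61, 1.99 and 2.01 CPM in the libraries labelled *Pgam* ASO. *Max*, the partner of MYC, fell from 112, 102 and 98 CPM to 76.1, 87.5 and 79.6 CPM (log2 fold change -0.36, edgeR adjusted p = 0.0262). *Myc* and *E2f1* are named after their values were seen. *Myc* stood at 310, 251 and 306 CPM against 283, 270 and 239 CPM and was not called (log2 fold change -0.13, edgeR adjusted p = 0.406), nor was *E2f1* at 0.31 (edgeR adjusted p = 0.103). None of the 4 was called higher without scrambled replicate 1, scrambled replicate 2, *Pgam* ASO replicate 1 or *Pgam* ASO replicate 2. In that order, the adjusted p from edgeR was 0.102, 0.119, 0.151 and 0.16 for *E2f3*, 0.125, 0.095, 0.138 and 0.116 for *E2f4*, 0.119, 0.115, 0.109 and 0.12 for *E2f7* and 0.103, 0.0619, 0.0634 and 0.113 for *Mycl*. Without *Pgam* ASO replicate 3, *E2f7* was not called either (adjusted p = 0.0685). With all libraries, edgeR did not call *E2f3* when scaled to library size alone (adjusted p = 0.0526) or with at least 10 counts in every library (adjusted p = 0.0503). Nor did it call *E2f7* when scaled to library size alone (adjusted p = 0.0544) or with no filter on low counts (adjusted p = 0.0503). *Max* had an adjusted p of 0.115, 0.0965 and 0.0763 without scrambled replicate 1, *Pgam* ASO replicate 1 and *Pgam* ASO replicate 2. In those 4 settings, 6, 5, 5 and 5 genes of the list were higher at an unadjusted p under 0.05, and with all libraries DESeq2 and limma-voom each called 4 higher.

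The lists nearest to the pathway are set beside it for scale, with the same shares of all tested genes, 8.03% called higher and 9.15% lower, as background. Of 11 genes of purine synthesis, the other branch of nucleotide production, 4 were called higher (36.4%) and 1 lower (9.09%), with a median log2 fold change of 0.361. *Atic*, which closes the purine ring, was highest at 0.52 and *Adssl1*, the muscle form of adenylosuccinate synthase, lowest at -1.15. Of 27 genes of the replication origin and fork, 7 were called higher (25.9%), with a median of 0.32, from 0.07 for *Gins4* to 0.75 for *Orc1*. Of 15 genes of G2 and mitosis, 8 were called higher (53.3%), with a median of 0.317, from -0.11 for *Cenpf* to 0.48 for *Plk1*. No gene of these last 2 lists was called lower by edgeR, DESeq2 or limma-voom, and none was lower at an unadjusted p under 0.05. The medians of these lists lie below that of the 9 enzymes, 0.46, and above that of all tested genes, -0.006. Of the 9 enzymes, 66.7% were called higher. No test of a difference between lists was made. These counts also turned on single libraries. Without scrambled replicate 1, 2 or 3, edgeR called 0, 3 and 17 replication genes, 0, 2 and 9 mitosis genes and 0, 1 and 6 purine genes higher. Without replicate 1, 2 or 3 labelled *Pgam* ASO, it called 1, 0 and 10 replication genes, 0, 0 and 6 mitosis genes and 0, 0 and 7 purine genes higher. Beside those counts of 0, 13 or 16 replication genes, 8 to 11 mitosis genes and 7 purine genes were higher at an unadjusted p under 0.05. With all libraries, DESeq2 called 13, 9 and 7 of these lists higher and limma-voom 9, 8 and 3. The purine gene called lower, *Adssl1*, was called without *Pgam* ASO replicate 3 and not without any other library.

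**Figure D5:**
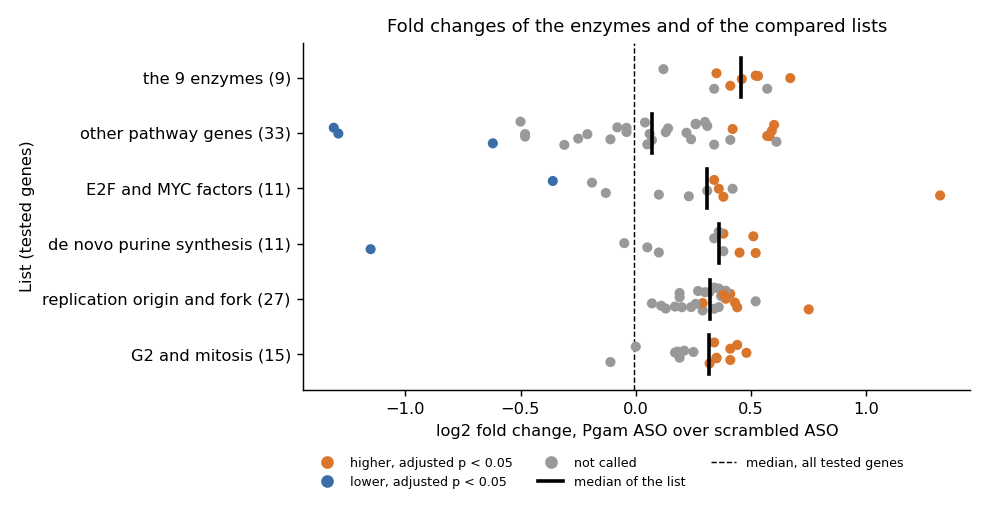
log2 fold changes of the tested genes of 6 lists, libraries labelled *Pgam* ASO over scrambled ASO, with each gene as a point, thick lines for the median of a list and a dashed line for the median of all tested genes, -0.006, and with points shifted up or down only to part them. The median of the 9 enzymes is 0.46 and that of the other pathway genes 0.072.

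The genes most like the 9 enzymes in their pattern over the 6 libraries were sought among the 8199 tested genes with a mean log2 CPM of at least 4. Likeness was the root mean square difference between a gene's centred log2 CPM and the mean of the 9. The nearest were *Psmb3* (0.0171), *Psmc1* (0.0203), *Eif4a1* (0.0216), *Psmd3* (0.0222) and *Eprs* (0.0236). *Psmb3* stood at 114, 97.8 and 124 CPM in scrambled replicates 1, 2 and 3 and at 168, 159 and 136 CPM in the libraries labelled *Pgam* ASO. Against the same mean, the nearest of the 9 was *Dut* (0.048) and the farthest *Umps* (0.1645), so *Dut* ranked 99 and *Umps* 2131 of the 8199 genes. This order is a description over 6 libraries and was not tested.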

How the data were processed

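The authors deposited estimated counts per gene, made with Kallisto and given as whole numbers; the submitters' notes name GRCm38 and no annotation version. The members and lists were chosen with earlier results of these data known. In R 4.3.3, edgeR 4.0.16 filtered genes (filterByExpr), scaled them by TMM and applied its robust quasi-likelihood test with Benjamini-Hochberg adjustment. A standard error is the absolute log2 fold change over the square root of F. Alternatives used DESeq2 1.42.0, limma 3.58.1 (voom), other scalings and filters, replicate number as a block, an adjusted p under 0.01, each library left out, and a pseudocount of 0 or 2 CPM. Read sharing was counted in 31-base stretches of GENCODE M21 transcripts, and lengths are of the principal transcript. Named genes are the 9 enzymes, *Pgam1*, *Pgam2*, called genes and isozymes of the pathway and regulator lists, the ends of each compared list, the most abundant marker of each cell type and the 5 genes most like the enzymes. Any other gene with values, and the markers at 0, were named after their values were seen.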

Additional observations from a re-analysis of the deposited data

How the results depend on the processing

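Every log2 fold change of the 9 enzymes was positive under every alternative run. No enzyme or isozyme shares 10% of its stretches with any single gene, so sums over such genes gave no value for them. For 9 enzymes the count called higher was 7 with DESeq2 and with no filter on low counts, 6 with limma-voom, RLE factors, scaling to library size, no ribosomal or mitochondrial genes, and at least 10 counts in every library. With no filter on low counts, edgeR called 1832 of all genes higher, 8 other pathway genes higher and 5 lower, 7 purine genes and 15 replication genes higher. DESeq2 called 5 other pathway genes lower, 7 purine genes and 13 replication genes higher, and edgeR with library size alone 2 regulators higher. The cause of these was not tested. At an adjusted p under 0.01, the threshold alone being stricter, edgeR called 173 genes higher and 280 lower. Of the 9 enzymes it called 0 (DESeq2 5, limma-voom 0), while 8 were higher at an unadjusted p under 0.05 in edgeR and 6 under 0.01. It called 0 other pathway genes higher and 1 lower, 0 regulators either way, 0 purine genes either way, and 0 replication and 0 mitosis genes higher. In place of those counts of 0 for other pathway, regulator, purine, replication and mitosis genes higher, DESeq2 called 5, 0, 3, 6 and 6 and limma-voom 0 each. In edgeR, 9, 6, 7, 21 and 11 were higher at an unadjusted p under 0.05, and 5, 4, 4, 8 and 8 at one under 0.01.

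No pairing by the replicate numbers of the labels was seen. Deviations from the group mean correlated across genes at r = 0.053, -0.034 and -0.237 for equal numbers, and not every library correlated best with its own number. Deviations of 3 libraries from their own mean are not independent, so this check cannot decide whether libraries of equal number were paired. With number as a replicate block, edgeR called 480 genes higher and 755 lower, 4 enzymes higher (all but *Rrm1* and *Tyms* of the 6; adjusted p = 0.0836 and 0.0765), 3 other pathway genes higher, 0 regulators higher and 0 lower (5 and 1 at an unadjusted p under 0.05), and 1 purine, 1 replication and 1 mitosis gene higher. Paired in this way, the difference in log2 ratio was 0.647, 0.177, 1.087 and 0.913 for *Rrm2* to *Rrm2b*, *Rrm2* to *Rrm1*, *Ctps* to *Ctps2* and *Tk1* to *Tk2*, with exact sign-flip p of 0.25, 0.25, 0.5 and 0.25, of which 0.25 is the smallest possible. With each library left out in turn, which also leaves fewer samples, calls ran from 160 to 1711 genes higher and 231 to 1773 lower, 0 to 8 enzymes higher, 0 to 7 other pathway genes higher and 1 to 5 lower, 0 to 6 regulators higher and 0 to 1 lower, 0 to 7 purine genes higher and 0 to 1 lower, 0 to 17 replication genes and 0 to 9 mitosis genes higher. The ratios kept their direction under every alternative.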
